A study of Mus musculus with 40 samples.

Results

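The genes of the cytosolic ribosomal proteins, the protein components of the ribosomes that translate nuclear mRNA, were followed in mouse embryonic stem cell aggregates over 5 days of culture and in 2 treatment arms. They were taken from the deposited count table by symbol alone: Rpl or Rps followed by a number and at most a short suffix, together with Rpsa, Rplp0, Rplp1 and Rplp2, leaving out pseudogene symbols and the Rps6k kinases. The rule took 83 of the 26906 genes in the table, 32 of the small subunit and 51 of the large. The rule uses no measured value. All 83 had enough counts to be tested, among 16878 tested genes. The rule also takes 6 paralogues, copies of a ribosomal protein gene with their own promoters: Rpl3l, Rpl7l1, Rpl10l, Rpl22l1, Rpl39l and Rps27l.

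The aggregates came from CGR8, a mouse embryonic stem cell line of strain 129, and were cultured without serum in N2B27 medium with Activin-A, Fgf2 and KSR in both arms. One arm had XAV939 for the first 72 h. This compound is a tankyrase inhibitor that protects Axin from degradation and dampens the Wnt/β-catenin pathway. The other arm had no treatment, and both were sampled at days 3, 4, 5, 6 and 7 with 4 libraries a group, 40 in all. Titles of the untreated libraries state that matrigel was absent whereas those of the XAV939 libraries are silent on it, so any difference in matrigel cannot be told apart from XAV939. Library totals ran from 30197759 to 44086019 counts (median 35737152). Levels are given as CPM, counts scaled to a common library size by TMM, and changes as log2 fold changes with their standard error (SE). A gene was called at an adjusted p below 0.05 in edgeR's quasi-likelihood test over all 16878 genes. The p-values reflect no more than the scatter among these libraries, because the labels do not say whether libraries of 1 group came from separate cultures. These are bulk libraries, in which fewer cells of a type and less RNA per cell cannot be told apart.

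Each ribosome carries 1 copy of nearly every ribosomal protein, so cells make the proteins in matched amounts and destroy the excess. The mRNAs are among the most abundant in growing cells, and most begin with a C followed by an unbroken stretch of pyrimidines, the 5′ terminal oligopyrimidine (TOP) motif, through which mTOR and Larp1 control their translation. Pluripotent stem cells divide quickly and make many ribosomes, and their exit from pluripotency is known to come with changes in ribosome production. Several paralogues are best known from the germline or from muscle, where they can replace the common form of the protein.

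Start-site sequences show where runs of pyrimidines lie in genes described below. RefSeq promoter windows (GRCm38.p6) were matched by symbol for 63 of the 83 genes, which is under 80%, so a comparison of promoter content over the whole set is void and none is made. Each sequence runs from 40 bases before the annotated start to 20 bases from it on, 5′ to 3′ on the strand of the gene, and capitals mark runs of 8 or more C or T. The windows are Rps6 at chr4:86857348-86857407 (minus strand), Rpl38 at chr11:114668540-114668599 (plus strand), Rpl22 at chr4:152325686-152325745 (plus strand), Rpl22l1 at chr3:28805468-28805527 (plus strand), Rps27 at chr3:90213629-90213688 (minus strand), Rps27l at chr9:66946046-66946105 (plus strand), Rpl39 at chrX:37085203-37085262 (minus strand), Rpl39l at chr16:10170188-10170247 (plus strand), Rpl10 at chrX:74270776-74270835 (plus strand) and Rpl10l at chr12:66284382-66284441 (minus strand). Rps6 and Rpl38 are shown as genes with a run across the annotated start, and the others are 4 of the 5 paralogue pairs whose balance is described below. The fifth is Rpl7l1 with Rpl7, and Rpl7 had no matched window.
Rps6: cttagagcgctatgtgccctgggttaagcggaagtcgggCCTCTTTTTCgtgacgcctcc
Rpl38: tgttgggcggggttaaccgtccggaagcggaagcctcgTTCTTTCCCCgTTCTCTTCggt
Rpl22: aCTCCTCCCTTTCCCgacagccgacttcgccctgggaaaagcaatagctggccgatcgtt
Rpl22l1: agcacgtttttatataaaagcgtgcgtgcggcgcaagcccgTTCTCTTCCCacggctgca
Rps27: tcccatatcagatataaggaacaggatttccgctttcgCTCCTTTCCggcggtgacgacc
Rps27l: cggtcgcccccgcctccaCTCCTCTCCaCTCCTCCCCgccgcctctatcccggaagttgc
Rpl39: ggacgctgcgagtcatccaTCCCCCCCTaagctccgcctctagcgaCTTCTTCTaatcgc
Rpl39l: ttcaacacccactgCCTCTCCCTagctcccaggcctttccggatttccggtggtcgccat
Rpl10: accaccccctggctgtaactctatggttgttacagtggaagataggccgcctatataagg
Rpl10l: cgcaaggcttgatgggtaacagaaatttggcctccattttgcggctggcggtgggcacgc
The run of Rps6 has 10 pyrimidines and begins 1 base before the annotated start. The run of Rps27 and the first of 2 runs in Rpl38 begin 2 bases before it, and the other run of Rpl38 begins 9 bases after it. Rpl22l1 has a run of 10 that begins 1 base after the start, and Rpl39 has runs that begin 21 bases before and 6 bases after it. The runs of Rpl22 and Rpl39l begin 39 and 26 bases before the start, and those of Rps27l 22 and 12 bases before it. These runs of Rpl22, Rpl39l and Rps27l end before the annotated start and are not shown to be TOP motifs. Rpl22 and Rps27l each have another RefSeq start, not printed here, with no run of 8 over the same stretch. No run of 8 lies in the windows of Rpl10 and Rpl10l, which says only that these letters are not there. A run of this length between 20 bases before and 50 after the start was found on the forward strand in 28.5% of all 27025 genes with a promoter window. Overlap of such runs with other motifs was not considered.

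At the RNA level the set was large and uneven. Per kilobase of annotated transcript, Rpl32 had the highest level over all libraries, 2128 CPM per kb, followed by Rpl4 with 2071, Rps27a with 2031 and Rps4x with 2009 CPM per kb. On this per-kilobase scale 80 of the genes lay between Rpl32 and Rpl29, at 149 CPM per kb. Far below came the paralogues Rpl39l at 1.62, Rpl10l at 1.51 and Rpl3l at 0.0939 CPM per kb. Some annotated lengths are doubtful (3706 bases for Rps20), so single ranks are approximate. Ribosomal protein genes also have many processed pseudogenes, and the handling of reads that fit both is not given in the sources used here.

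Together the 83 genes held several percent of all counts, and the share became smaller with time. In untreated libraries 1 to 4 they held 6.61, 6.15, 8.15 and 6.34% of the counts at day 3 and 4.67, 5.49, 5.14 and 4.88% at day 7. With XAV939 the shares were 6.47, 6.68, 9.59 and 8.42% at day 3 and 5.03, 5.17, 4.92 and 4.81% at day 7. In both arms every day 3 library lay above every day 7 library. At day 6 the untreated shares were 5.17, 5.40, 11.8 and 5.17%, so library 3 of that group stands far from the other 3 and from all the other libraries. The 4 libraries per group averaged 6.81 ± 0.91% and 5.04 ± 0.352% (SD) in untreated aggregates at days 3 and 7, and 7.79 ± 1.49% and 4.98 ± 0.155% with XAV939.

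**Figure D1:**
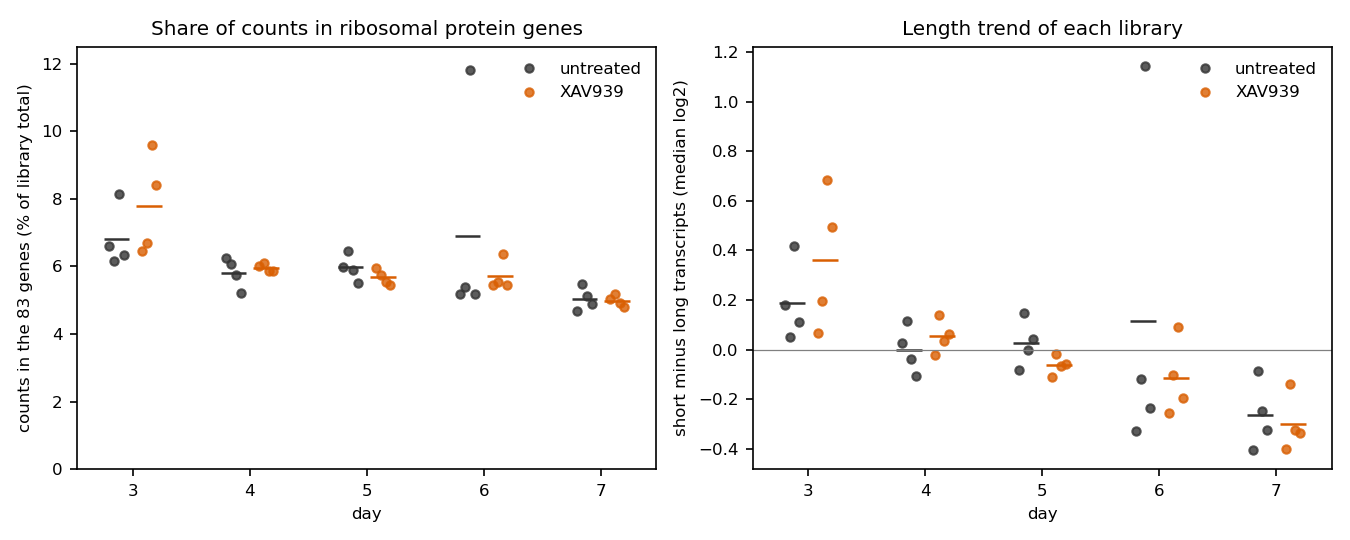
Left, share of each library's counts in the 83 ribosomal protein genes (percent of the library total) by day, and right, the length trend of the same libraries (median log2 level of transcripts under 1000 bases minus that of transcripts over 4000 bases, ribosomal protein genes left out). Points are libraries, lines are group means, and untreated day 6 library 3 is the highest point in both panels, at 11.8% and 1.143.

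A second property of the libraries moved with this share. In each library the level of every gene was set against its mean over all libraries, and the median for short transcripts (under 1000 bases) was compared with that for long ones (over 4000 bases), with the ribosomal protein genes left out. This length trend was 0.179, 0.05, 0.418 and 0.113 log2 units in the untreated day 3 libraries and -0.404, -0.0840, -0.246 and -0.324 at day 7. It was 0.0680, 0.196, 0.686 and 0.494 with XAV939 at day 3 and -0.4, -0.14, -0.322 and -0.334 at day 7. Short transcripts were thus over-represented at day 3 and under-represented at day 7. Library 3 of the untreated day 6 group had 1.143, and 3 day 3 libraries were also above 0.4: untreated library 3 and XAV939 libraries 3 and 4. In that day 6 library the ribosomal protein genes stood at a median of 2.31 times the mean of the other 3 libraries. Other transcripts stood at 1.30 times under 500 bases, 1.67 times from 500 to under 1000, 1.45 times from 1000 to under 2000 and 0.614 times at 4000 bases and over, so the shortest class was not the highest. The ribosomal protein genes are short, with a median annotated transcript of 729 bases against 2120 for all genes, and 63 of the 83 are under 1000 bases. Changes of the set are therefore also given with offsets for length and GC content, and without the 4 libraries above 0.4. Whether the trend comes from the RNA, the library preparation or the cells was not tested.

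The first comparison asked how the set changed from day 3 to day 7 within each arm. Most ribosomal protein genes fell and none rose. In untreated aggregates 67 of 83 fell, against 32.6% of all genes called lower, and 0 rose, against 34.7% of all genes called higher. With XAV939 80 of 83 fell, against 34.1% of all genes, and 0 rose, against 36.8%. The 67 were all among the 80. The median change was -0.60 log2 units without XAV939 and -0.88 with it, while the median of all tested genes was 0.03 and 0.04. Both subunits took part: of 32 small subunit genes 24 fell in untreated and 32 in XAV939 aggregates (medians -0.56 and -0.84), and of 51 large subunit genes 43 and 48 fell (medians -0.63 and -0.91). Day 3 and day 7 libraries did not overlap for 76 of the 83 genes in untreated and 81 in XAV939 aggregates, against 65.9% and 64.1% of all genes.

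The size of this decrease and the number of calls changed with the handling of length and with single libraries. With length and GC offsets 61 and 73 genes fell in the 2 arms, at medians of -0.35 and -0.44, where 40.9% and 41.3% of all genes were called lower and the median of all genes was -0.09 and -0.08. Without the 4 libraries of steep length trend 73 of 82 tested genes fell in untreated and 78 in XAV939 aggregates, at medians of -0.46 and -0.55, and Rpl3l had too few counts for the test. Counted across the original fit and these 2 alternatives, 58 genes fell in both arms every time. Without untreated day 3 library 3 alone, 43 genes fell in untreated aggregates, at a median of -0.46. For the fits that leave out libraries, and for the 58 genes, no share of all genes is given here. These counts can therefore not be read as particular to the set. Scaled by library totals only, 46 and 72 genes fell, against 26.8% and 26.4% of all genes called lower. Their medians were -0.44 and -0.65, while the median of all genes then stood at 0.18 and 0.26. Among other transcripts of 500 to under 1000 bases, 39% were called lower without and 44.9% with XAV939, at medians of -0.25 and -0.37. For the 278 others under 500 bases the shares were 32.7% and 35.3% and the medians -0.04 and -0.22, and for those of 4000 bases and over the medians were 0.22 and 0.32.

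**Figure D2:**
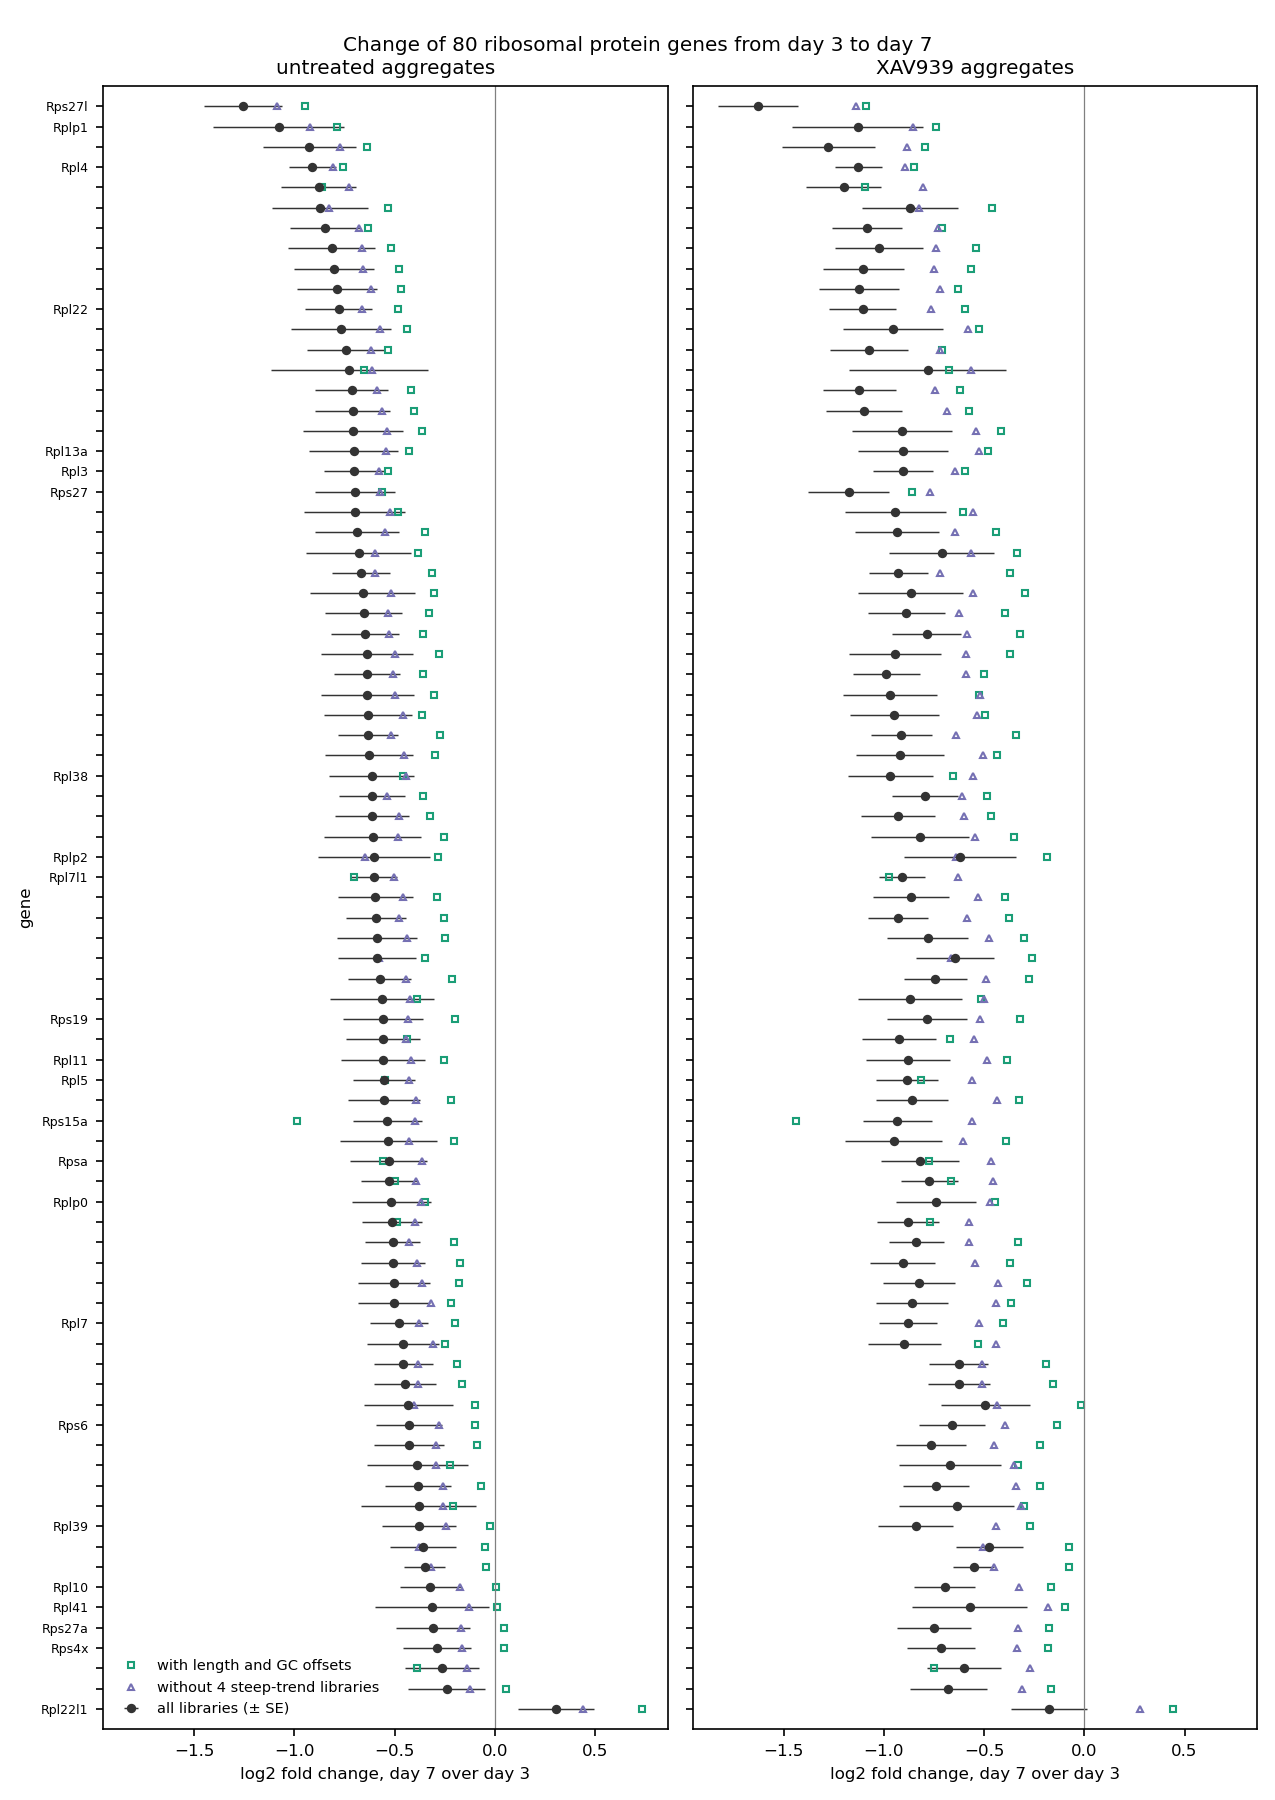
Log2 fold change from day 3 to day 7 of the 80 ribosomal protein genes above 50 CPM in untreated (left) and XAV939 aggregates (right): black points are estimates from all libraries with their SE, squares use length and GC offsets, triangles leave out the 4 libraries with a length trend above 0.4. Nearly all points lie left of 0, Rps27l is lowest and Rpl22l1 highest, at -1.26 and 0.30 without XAV939. The square of Rps15a, whose annotated length is doubtful, lies apart. Names are printed for genes described in the text.

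Levels did not go down evenly from day to day. Between neighbouring days the median log2 difference of the 83 genes was -0.31 from day 3 to day 4, -0.02 from day 4 to 5, 0.23 from day 5 to 6 and -0.50 from day 6 to 7 in untreated aggregates. In XAV939 aggregates it was -0.51, -0.12, -0.04 and -0.23. With all libraries both arms had their first large step between days 3 and 4. Day 3 holds 3 of the 4 libraries of steep length trend, and this step was not fitted without them. The other day 3 libraries held 6.15 to 6.61% of counts in the set without and 6.47 to 6.68% with XAV939. At day 4 the shares were 5.21 to 6.26% and 5.85 to 6.11%. In untreated aggregates the values on both sides of day 6 rested on library 3 of that day. Without it the median was -0.21 from day 5 to 6, where 82 of the 83 estimates were negative instead of 6, and -0.07 from day 6 to 7.

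Cell type markers changed between the same days. All 9 genes of a primed epiblast list, among them Pou5f1 and Dnmt3b, fell in both arms. Their summed level lay between 3716 and 4459 CPM at day 3 and between 494 and 689.6 CPM at day 7 in untreated libraries, and between 3658 and 4634 CPM and between 372 and 597 CPM with XAV939. Of 9 neural progenitor genes 7 rose without and 8 with XAV939. The neural sum was between 313 and 334 CPM at day 3 and between 518 and 848 CPM at day 7 in untreated libraries, and between 314 and 340.5 CPM and between 833 and 1166 CPM with XAV939. Of 9 genes of the primitive streak and presomitic mesoderm 5 rose in each arm and 1 fell with XAV939. Together they stood between 11.8 and 13.5 CPM at day 3 and between 212 and 307 CPM at day 7 in untreated libraries, and between 7.72 and 10.7 CPM and between 121 and 253 CPM with XAV939, where Msgn1 was at 0 in the day 7 libraries. Of 9 definitive endoderm genes 5 rose in each arm, and 2 fell without and 3 with XAV939. Endoderm sums were between 965 and 1135 CPM at day 3 and between 567 and 1106 CPM at day 7 in untreated libraries, and between 1087 and 1218 CPM and between 274 and 631 CPM with XAV939. Of 9 blood precursor genes 4 could be tested, and 2 rose and 1 fell in each arm. All 9 summed to between 6.17 and 7.94 CPM at day 3 and between 36.4 and 109.9 CPM at day 7 in untreated libraries, and between 7.46 and 10.7 CPM and between 20.8 and 37.7 CPM with XAV939. Among them Hba-x was at 0 in every day 7 library, and Hbb-bh1 and Hba-a1 were at 0 at day 7 with XAV939. The part of these cell types in the change of the ribosomal protein genes was not tested.

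Among genes of the small subunit, Rps6 (chromosome 4, 86854660 to 86857412, mm10) encodes the protein that the S6 kinases phosphorylate. Its levels were 697, 631, 964 and 666 CPM in untreated libraries 1 to 4 at day 3 and 536, 601, 543 and 518 CPM at day 7. With XAV939 they were 711, 714, 1105 and 883 CPM and 551, 562, 533 and 513 CPM. Library 3 was the highest at day 3 in each arm and the days did not overlap. Rps6 fell in both arms, with log2 values of -0.43 (SE 0.165, adjusted p 0.0222) and -0.66 (SE 0.166, adjusted p 0.000655). The untreated call was lost without untreated day 3 library 3 (adjusted p 0.151), without untreated day 7 library 4 (adjusted p 0.0535) and with library totals only (adjusted p 0.129). With length and GC offsets neither arm was called (adjusted p 0.266 and 0.115).

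Rps4x (chromosome X, 102184941 to 102189394) encodes an X-linked protein of the small subunit and, per kilobase, stood next to Rps27a at the top of that subunit. It stood at 1804, 1811, 2525 and 1901 CPM in the untreated day 3 libraries and at 1708, 1619, 1740.1 and 1517 CPM at day 7. With XAV939 the values were 1966, 1991, 3293 and 3009.8 CPM and 1545, 1479, 1668 and 1558 CPM. In both arms the lowest day 3 library lay above the highest day 7 library, in untreated aggregates by a narrow margin. On the log2 scale the difference was -0.29 (SE 0.170, adjusted p 0.133) without XAV939, which missed the threshold, and -0.71 (SE 0.171, adjusted p 0.000386) with it. The untreated difference passed in 2 alternatives, with only the libraries compared (adjusted p 0.0483) and without both libraries that stand apart, untreated day 4 library 1 and day 6 library 3 (adjusted p 0.0482). With length and GC offsets it was 0.05 (adjusted p 0.609), and the difference with XAV939 was -0.18 (adjusted p 0.0458).

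Rps27a (chromosome 11, 29545846 to 29548109) makes a fusion of ubiquitin with a small subunit protein, so its mRNA also supplies the cell with ubiquitin. The untreated libraries had 1215, 1221, 1779.8 and 1314 CPM at day 3 and 1126, 1133, 1191 and 1017 CPM at day 7, and the XAV939 libraries 1297, 1316, 2217 and 2136 CPM and 1002, 979.9, 1139.7 and 1017 CPM. Day 3 was above day 7 in every library of each arm. Its log2 fold change was -0.31 (SE 0.185, adjusted p 0.141) in untreated and -0.75 (SE 0.186, adjusted p 0.000574) in XAV939 aggregates. The untreated difference missed the threshold, and passed it with only the libraries compared (adjusted p 0.0446). With length and GC offsets it was 0.05 (adjusted p 0.585), and the difference with XAV939 was -0.17 (adjusted p 0.0406). Rps27a shares its locus with part of the annotation of Clhc1.

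Rpsa (chromosome 9, 120127689 to 120132369), a small subunit protein also known as a laminin receptor, went from 2234 ± 517 to 1547 ± 112 CPM (SD, n = 4) and from 2653 ± 686 to 1502 ± 95.2 CPM, a fall with log2 values of -0.53 (SE 0.193, adjusted p 0.0157) and -0.82 (SE 0.193, adjusted p 0.00033). Rps19 (chromosome 7, 24884371 to 24889806), which is mutated in many cases of Diamond-Blackfan anaemia, went from 863 ± 156 to 585 ± 48.7 CPM and from 1017 ± 215 to 591 ± 36.1 CPM, at log2 -0.56 (adjusted p 0.0135) and -0.78 (adjusted p 0.000773). Rpsa and Rps19 fell in both arms, with no overlap between days. Without untreated day 3 library 3 the untreated calls of Rpsa (adjusted p 0.113) and Rps19 (adjusted p 0.0735) were lost. The 8 small subunit genes that were not called in untreated aggregates were Rps2, Rps4x, Rps9, Rps20, Rps21, Rps27a, Rps28 and Rps29, and all 8 had negative estimates and were called lower with XAV939.

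Rpl4 (chromosome 9, 64173375 to 64178666), a large subunit protein that lines the exit tunnel, came next to Rpl32 per kilobase. Its untreated libraries stood at 4109, 3960.4, 5306 and 3986 CPM at day 3 and at 2419, 2293, 2317 and 2203 CPM at day 7. With XAV939 they stood at 4155, 4221, 5955 and 5314 CPM and at 2319, 2145, 2356 and 2163 CPM. The lowest day 3 library was far above the highest day 7 library in both arms. Rpl4 fell in both arms, at log2 -0.91 (SE 0.117, adjusted p 2.18e-08) and -1.13 (SE 0.117, adjusted p 2.19e-10). Its untreated group means went from 4340.3 ± 647 at day 3 to 3352 ± 232, 2920.0 ± 217, 2799 ± 602 and 2308 ± 88.8 CPM at days 4 to 7.

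Rpl5 (chromosome 5, 107900502 to 107909005) and Rpl11 (chromosome 4, 136028265 to 136053428) form a particle with 5S rRNA that binds Mdm2 when ribosome assembly fails. Rpl5 went from 1210.0 ± 214 to 824 ± 54.6 CPM without and from 1471 ± 338 to 797 ± 56.7 CPM with XAV939, or on the log2 scale -0.55 (SE 0.154, adjusted p 0.00201) and -0.88 (SE 0.155, adjusted p 5.82e-06). Rpl11 went from 752 ± 148 to 511 ± 35.4 CPM and from 901 ± 249.6 to 489.8 ± 10 CPM, or -0.56 (adjusted p 0.0191) and -0.88 (adjusted p 0.0004). They fell in both arms, by nearly the same log2 amount. The untreated call of Rpl11 was lost without untreated day 3 library 3 (adjusted p 0.0988).

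Rpl3 (chromosome 15, 80077791 to 80091868), which takes part in the peptidyl transferase centre, fell with log2 fold changes of -0.70 (adjusted p 0.000111) and -0.90 (adjusted p 2.47e-06). Rpl7 (chromosome 1, 16101295 to 16104662) fell at log2 -0.48 (adjusted p 0.00382) and -0.88 (adjusted p 1.99e-06). Rpl13a (chromosome 7, 45125558 to 45128761), known also for a role outside the ribosome in interferon-γ-dependent silencing of translation, fell at log2 -0.71 (adjusted p 0.00609) and -0.91 (adjusted p 0.000577). For Rpl3, Rpl7 and Rpl13a the days did not overlap in either arm. Rpl10 (chromosome X, 74270812 to 74273135), the X-linked parent of Rpl10l, had log2 fold changes of -0.32 (adjusted p 0.0618) and -0.70 (adjusted p 0.000151). Rpl39 (chromosome X, 37082520 to 37085402), the X-linked parent of Rpl39l, had -0.38 (adjusted p 0.0695) and -0.84 (adjusted p 0.000155). Rpl10 and Rpl39 passed the threshold with XAV939 and missed it without, and neither was called in the test of the difference between arms. In untreated aggregates Rpl10 was called lower in 6 alternatives, among them the replicate block over all days (-0.31, adjusted p 0.0369) and the fit without the 4 libraries of steep length trend (-0.17, adjusted p 0.0376), and Rpl39 in 4 (adjusted p 0.0151 to 0.0483). With length and GC offsets the untreated estimates were 0.004 for Rpl10 (adjusted p 0.959) and -0.03 for Rpl39 (adjusted p 0.809). Rpl38 (chromosome 11, 114668524 to 114672331), whose loss in mice alters the body plan through translation of Hox mRNAs, went from 351 ± 83.4 to 229 ± 23.0 CPM and from 427 ± 122 to 218 ± 4.42 CPM, at log2 -0.62 (adjusted p 0.0111) and -0.97 (adjusted p 0.000152). Without untreated day 3 library 3 its untreated adjusted p was 0.0801. Rpl41 (chromosome 10, 128548114 to 128549305), the gene of the smallest ribosomal protein, was called in neither arm, with -0.31 (adjusted p 0.334) and -0.57 (adjusted p 0.0721) and overlapping days. With XAV939 it was called lower in 3 alternatives (adjusted p 0.00468 to 0.0426), and with length and GC offsets it was at -0.10 (adjusted p 0.559).

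**Figure D3:**
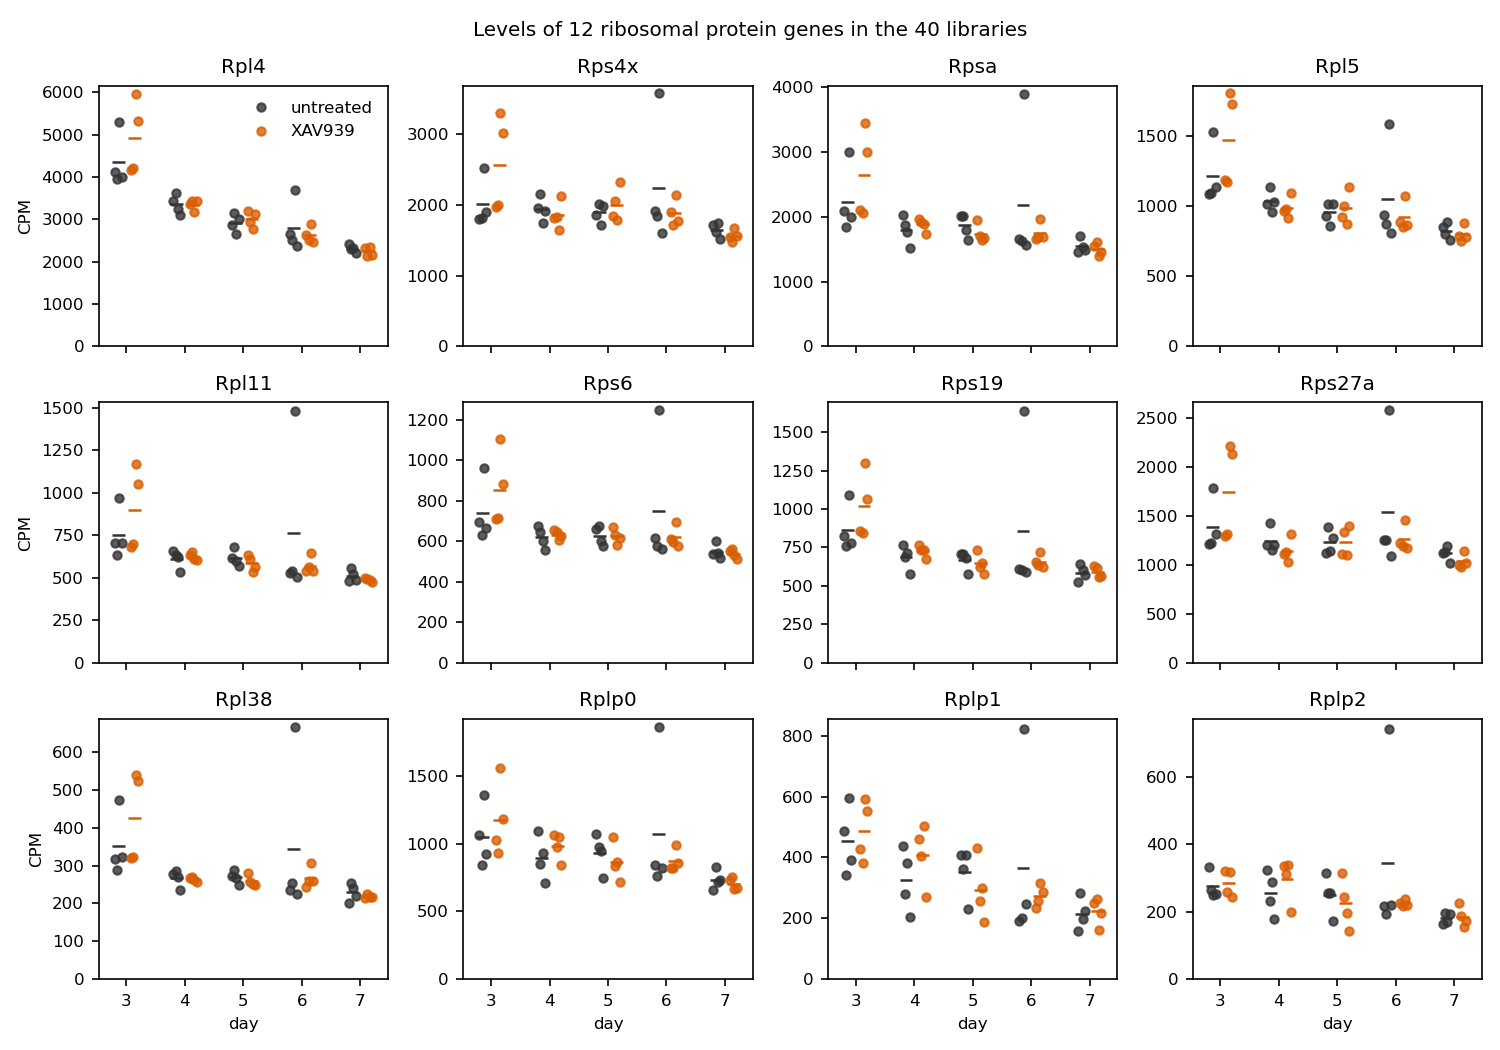
Levels (CPM) of 12 ribosomal protein genes by day in the 40 libraries, untreated in grey and XAV939 in orange, with lines at the group means. In most panels day 3 has 1 high untreated and 2 high XAV939 libraries, untreated day 6 library 3 is the highest of its group, and day 7 has the lowest and tightest values, as for Rpl4 from 3960 to 5306 CPM at day 3 to 2203 to 2419 CPM at day 7 in untreated aggregates.

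The acidic stalk of the large subunit, where translation factors dock, is made of Rplp0 (chromosome 5, 115559467 to 115563727), which anchors it, and of Rplp1 (chromosome 9, 61913284 to 61914542) and Rplp2 (chromosome 7, 141447370 to 141451585), which bind it as dimers. Rplp1 had 488, 343, 596 and 390.4 CPM in the untreated day 3 libraries and 157, 282, 198 and 224 CPM at day 7. With XAV939 it had 428, 382, 591 and 553 CPM and 249, 263, 162 and 218 CPM. Rplp1 spread widely within groups, yet its days did not overlap. Its fall was -1.08 (SE 0.327, adjusted p 0.00416) and -1.13 (SE 0.327, adjusted p 0.00265) on the log2 scale. Rplp0 had 1067, 844, 1364 and 925 CPM at day 3 and 659, 828, 715 and 731 CPM at day 7 without XAV939, and 1030.1, 932, 1563 and 1184 CPM and 729.5, 754, 664 and 673 CPM with it. Its fall was -0.52 (SE 0.198, adjusted p 0.0211) and -0.74 (SE 0.198, adjusted p 0.0013), and the untreated call was lost without untreated day 3 library 3 (adjusted p 0.118) and without untreated day 7 library 1 (adjusted p 0.0578). Rplp2 stood at 333, 263, 250.3 and 252 CPM and then 165, 196, 169.6 and 193 CPM in untreated, and at 320.0, 259, 317 and 243 CPM and then 226, 188, 154 and 172 CPM in XAV939 libraries. Its log2 fold changes were -0.60 (SE 0.279, adjusted p 0.0553) and -0.62 (SE 0.279, adjusted p 0.0459), of which the first missed the threshold. The XAV939 call was lost in 10 alternatives (adjusted p 0.0563 to 0.318). The estimate was -0.40 with library totals only and -0.18 with length and GC offsets. It was between -0.63 and -0.54 with other filters on low counts and without each of XAV939 day 3 libraries 1 and 3 and day 7 libraries 2, 3 and 4. Without the 4 libraries of steep length trend Rplp2 was called lower in untreated aggregates (adjusted p 0.00742).

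The 3 largest changes belonged to weakly expressed paralogues. Rpl39l (chromosome 16, 10170226 to 10174911), a copy of Rpl39 best known from male germ cells, had 101, 129, 151 and 94 counts in untreated libraries 1 to 4 at day 3 and 0 in all 4 at day 7. With 3 counts taken as the upper limit for the whole day 7 group it was at least 170.3-fold lower. With XAV939 it had 81, 103, 181 and 105 counts at day 3 and 1, 4, 0 and 0 at day 7, a 106-fold lower level (95% exact interval of the counts 45.0 to 328). Rpl10l (chromosome 12, 66283379 to 66284401), an intronless copy of the X-linked Rpl10 needed in male meiosis, had 147, 226, 289 and 152 and then 1, 4, 0 and 2 counts in untreated and 92, 151, 214 and 107 and then 0, 3, 0 and 0 counts in XAV939 libraries. It was 125-fold lower (60.4 to 312) and 212-fold lower (72.1 to 1030) at day 7. Rpl3l (chromosome 17, 24727820 to 24736143), the muscle form of Rpl3, had 34 counts in untreated and 54 in XAV939 libraries at day 3, and 7 and 6 at day 7, which is 5.22-fold (2.28 to 14.0) and 10.1-fold (4.37 to 28.8) lower. Rpl39l, Rpl10l and Rpl3l were called lower in both arms (edgeR adjusted p 1.13e-08, 4.8e-09 and 0.00111 without XAV939). They passed the filter on low counts only through libraries of the early days, where they were high. Their lower calls thus depend on the filter, and the p-values are given as a description. All 3 are included in the numbers of genes that fell. These intervals and floors cover counting error only. How reads shared with a near-identical parent gene or pseudogene were counted is not known, so absolute levels of these copies are uncertain. With Rpl39l at its bound the median of the set was still -0.60.

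Rps27l (chromosome 9, 66946086 to 66949516), a copy of Rps27 that p53 is known to induce, fell most among the 80 genes above 50 CPM. It had 272, 246, 399.7 and 276 CPM in the untreated day 3 libraries and 116, 125, 142 and 118 CPM at day 7. With XAV939 it had 258, 265, 489.8 and 453 CPM and 106, 115, 133 and 120.3 CPM. Every day 3 value was well above every day 7 value. Its log2 fold change was -1.26 (SE 0.195, adjusted p 8.61e-07) and -1.63 (SE 0.197, adjusted p 6.24e-09), while that of Rps27 (chromosome 3, 90212522 to 90213651) was -0.70 (SE 0.199, adjusted p 0.00252) and -1.18 (SE 0.201, adjusted p 3.91e-06).

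Rpl22l1 (chromosome 3, 28805436 to 28807424), a copy of Rpl22 that Rpl22 protein is known to repress, had the only positive estimate of the set in untreated aggregates. It had 119.8, 119, 178 and 139 CPM in untreated libraries at day 3 and 175, 161, 196 and 154 CPM at day 7. With XAV939 it had 128, 131, 206 and 242 CPM and 147, 145, 176 and 158 CPM. The days overlapped in both arms, and the log2 fold change was 0.30 (SE 0.189, adjusted p 0.156) and -0.18 (SE 0.189, adjusted p 0.411). With length and GC offsets Rpl22l1 was called higher in both arms, at 0.73 (adjusted p 2.57e-06) and 0.44 (adjusted p 0.00154), and without the 4 libraries of steep length trend at 0.44 (adjusted p 0.00198) in untreated aggregates, with 0.28 (adjusted p 0.0774) in the other arm. The XAV939 estimate was thus below 0 with all libraries and above 0 under both alternatives. Rpl22 (chromosome 4, 152325742 to 152334071) had 687, 674, 925 and 687 and then 443, 428, 452 and 408 CPM without, and 673, 741, 1109 and 1054 and then 419.6, 394, 449.5 and 398 CPM with XAV939. Rpl22 fell in both arms, at log2 -0.78 (SE 0.165, adjusted p 9.86e-05) and -1.11 (SE 0.166, adjusted p 4.25e-07), with no overlap between days.

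Ratios within a library between a paralogue and its parent gene do not depend on library scaling. They are ratios of counts, not corrected for transcript length. Of the summed counts of Rpl22l1 and Rpl22, Rpl22l1 held 14.9, 15, 16.2 and 16.8% in the untreated day 3 libraries, 24.7, 23.5, 22.6 and 25.3% at day 4 and 28.4, 27.3, 30.3 and 27.4% at day 7. With XAV939 its share was 16.0, 15, 15.7 and 18.7% at day 3 and 25.9, 26.9, 28.2 and 28.5% at day 7. The 2 days were widely apart in both arms, and most of the shift was already present at day 4. At day 6 the untreated shares were 30.2, 26.0, 26.8 and 27.7%, and library 3 did not stand apart. The log2 ratio of Rpl22l1 to Rpl22 was higher at day 7 by 1.08 (2.12-fold) in untreated and by 0.95 (1.93-fold) in XAV939 aggregates (two-sided exact permutation p = 0.0286 in each, the smallest that 4 against 4 libraries allow, and 0.0358 after Benjamini-Hochberg adjustment over 10 such ratios).

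The balance of Rps27l and Rps27 shifted the other way and later. Rps27l held 30.1, 29.2, 31.9 and 30.4% of the pair's counts in untreated libraries at day 3, 29.7, 31.4, 32.5 and 30.8% at day 5, 24.2, 26.8, 21.7 and 25.7% at day 6 and 21.6, 22.3, 25.0 and 23.2% at day 7. With XAV939 it held 26.8, 28.0, 29.5 and 29.0% at day 3 and 20.8, 22.1, 24.1 and 23.2% at day 7. Its untreated shares were level up to day 5 and lower from day 6 on. The log2 ratio differed by -0.55 and -0.44 between days 3 and 7 (two-sided exact permutation p = 0.0286, adjusted 0.0358, in each arm). For Rpl7l1, a copy of Rpl7 whose yeast counterpart acts in ribosome assembly, the share went from 12 ± 0.119 to 11.2 ± 0.556% in untreated (exact permutation p = 0.0571, adjusted 0.0634) and from 11.3 ± 0.808 to 11.0 ± 0.383% in XAV939 aggregates (exact permutation p = 0.514). Rpl39l made up 0.682, 0.922, 0.690 and 0.669% of the counts of Rpl39l and Rpl39 at untreated day 3, and Rpl10l 0.4, 0.583, 0.471 and 0.380% of those of Rpl10l and Rpl10. The log2 ratios of both pairs were lower at day 7 in both arms (exact permutation p = 0.0286, adjusted 0.0358). As these copies passed the filter only through early days, these p-values are given as a description. The adjustment of the other ratios includes them. With few or 0 counts at day 7 the added 0.5 sets the size of the change. For untreated Rpl39l it was 194-fold, and 97.5-fold with 1 added instead.

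**Figure D4:**
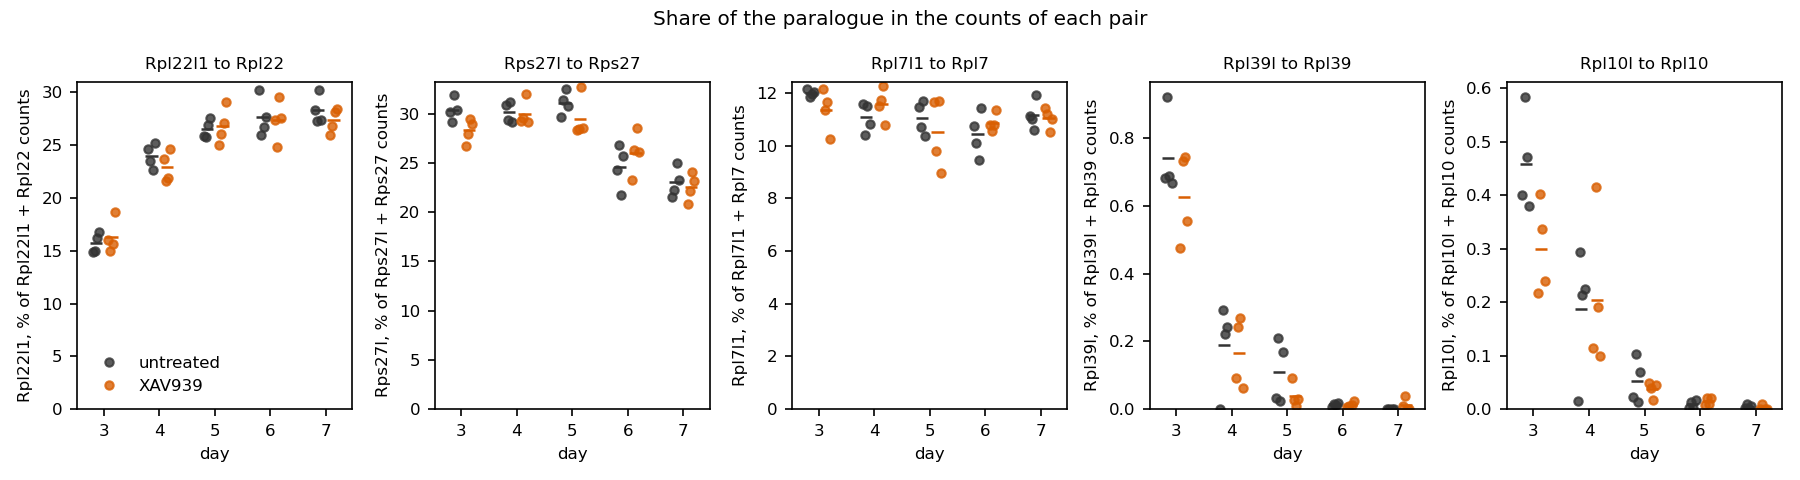
Share of the paralogue in the summed counts of 5 paralogue and parent pairs (percent, linear axes from 0) by day, with 1 point a library and lines at group means, untreated in grey and XAV939 in orange. Rpl22l1 goes from a mean of 15.7 to 28.3% in untreated aggregates and Rps27l from 30.4 to 23.0% between days 3 and 7, while Rpl39l and Rpl10l, under 1% at day 3, are at or near 0 by day 6.

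Apart from these pairs most genes of the set moved little relative to one another. When the level of each gene was taken relative to the median of the 80 genes above 50 CPM in the same library, 66 of 83 genes in untreated and 65 in XAV939 aggregates moved by less than 0.25 log2 units between days 3 and 7. Of all tested genes, each taken relative to the median of the 4552 tested genes above 50 CPM, 20.6% and 18.3% moved by less than that. Relative to the set, 7 genes were higher at day 7 with no overlap in untreated aggregates, namely Rpl22l1, Rpl36a, Rps20, Rps27a, Rpl10, Rps6 and Rps23, and 24 were lower, against 37.2% higher and 28.5% lower of all genes relative to their own median. With XAV939 4 were higher, Rpl22l1, Rpl41, Rps20 and Rps28, and 16 were lower, against 36.3% and 26.8% of all genes. Rpl22l1 and Rps20 were relatively higher in both arms, and Rps12, Rplp1, Rpl4 and Rps3 were among those relatively lower in both (genes picked after their values were seen). Over the 40 libraries, after subtraction of the mean of each group, the log2 levels of the 80 genes above 50 CPM had a median pairwise Pearson r of 0.874, against -0.000685 for 1688 sampled genes, and the first principal component held 83.2% of their variance. The length trend and any other effect of a whole library enter these values, which are given as a description. Rps2 and Rplp2 followed the rest least, with median r of 0.608 and 0.628.

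The second comparison asked whether XAV939 altered the set at any day. No ribosomal protein gene was called by edgeR at any of the 5 days, nor by DESeq2. Of all genes 0.00592% were called at day 3, 0.0178% at day 4, 2.34% at day 5, 4.34% at day 6 and 0.00592% at day 7. With edgeR 5, 0, 0, 8 and 0 ribosomal protein genes had an unadjusted p under 0.05 at days 3, 4, 5, 6 and 7. Of all 16878 genes 309, 944, 2113, 2658 and 1326 had one on these days. The share of the set was thus above that of all genes at day 3 and below it on the other days. With DESeq2 there were 7, 0, 1, 8 and 1 ribosomal protein genes, and no number of all genes is given here. The smallest adjusted p with edgeR was 0.179, for Rpl13 at day 6. The median log2 fold change of XAV939 over untreated was 0.25 at day 3, 0.03 at day 4, -0.05 at day 5, -0.31 at day 6 and -0.05 at day 7. The estimates lay on 1 side for nearly the whole set at day 3, where 82 of 83 were positive, and at day 6, where 82 were negative.

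Libraries with a steep length trend belong to both of these days. Without those 4 libraries the median at day 3 was 0.05 and that at day 6 was 0.12, with 2 negative estimates left, so the sign at day 6 turned. With length and GC offsets the medians were 0.12 and -0.04. Leaving out 1 library at a time gave medians of 0.11 to 0.40 at day 3 and of -0.43 to 0.13 at day 6, the last without untreated day 6 library 3. When replicate numbers were blocked within days no gene was called either, and 33 genes at day 3 and 5 at day 6 had an unadjusted p under 0.05. The number of all genes under it with this block is not given here, so these counts cannot be read as particular to the set. Rps27 was the gene with the largest positive estimate at day 3 among the 5 (log2 0.44, SE 0.199). It had 631, 597, 853 and 634 CPM in untreated and 708, 683, 1171 and 1110.4 CPM in XAV939 libraries. Its groups overlapped, with XAV939 libraries 3 and 4 above the others.

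**Figure D5:**
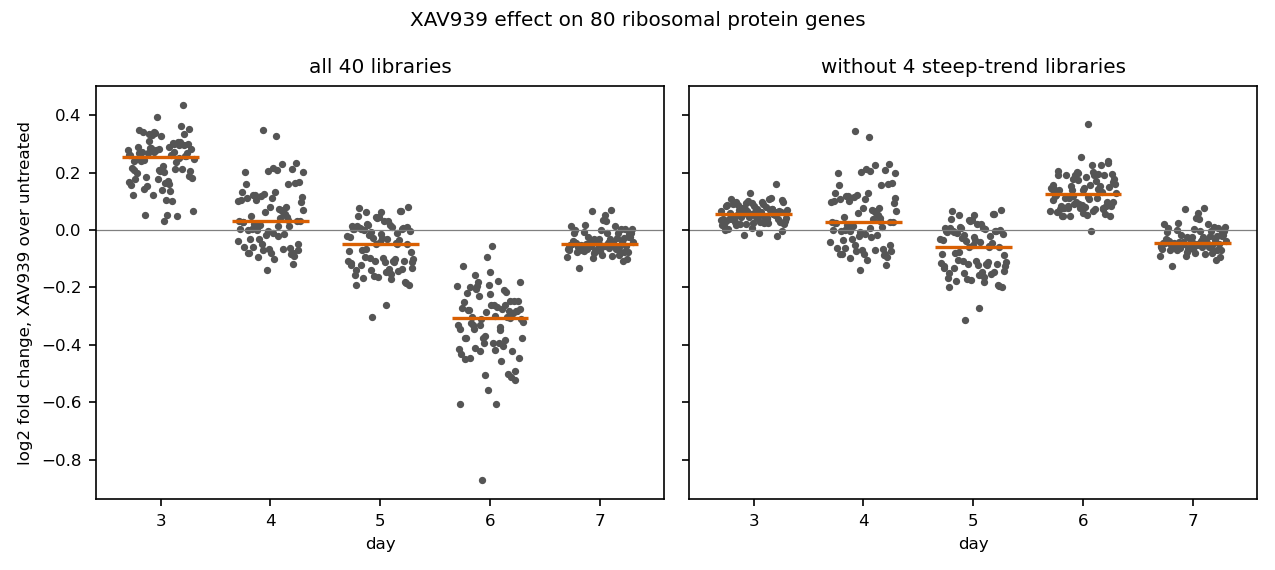
Log2 fold change of XAV939 over untreated for the 80 ribosomal protein genes above 50 CPM at each day, with all 40 libraries (left) and without the 4 libraries with a length trend above 0.4 (right). Points are genes and orange lines their medians. The medians of 0.25 at day 3 and -0.31 at day 6 on the left become 0.05 and 0.12 on the right, and no gene passes the threshold in either panel.

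The difference between the arms in the change from day 3 to day 7 was tested directly. The median log2 difference (XAV939 minus untreated) was -0.30, and no ribosomal protein gene was called, with 0% of all genes called. None had an unadjusted p under 0.05 with edgeR, against 718 of all 16878 genes, and none with DESeq2. When replicate numbers were blocked within days 22 had one (smallest adjusted p 0.241). No number of all genes is given here for that fit. The larger number of calls with XAV939 (80 against 67) is thus not shown to be a difference between the arms. The median difference was -0.09 without the 4 libraries of steep length trend and -0.12 with length and GC offsets. In an F test of the 5 daily effects together 0 of 83 genes were called, against 5.8% of all genes. In that test 0 of them had an unadjusted p under 0.05, against 2591 of all 16878 genes. The smallest adjusted p was 0.54. With length and GC offsets and a replicate block within each day 1 gene, Rps27, was called in this F test (adjusted p 0.0313), where 18.7% of all genes were called. With the block alone none was (smallest adjusted p 0.146), where 13.4% of all genes were called, and 4 ribosomal protein genes had an unadjusted p under 0.05.

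Other genes of the pathway were counted on lists for day 7 against day 3, with the same background and only in the fit with all libraries. Of all genes 32.6% were called lower in untreated and 34.1% in XAV939 aggregates, and 34.7% and 36.8% were called higher. Of 18 translation genes with TOP mRNAs 14 and 15 fell, at medians of -0.48 and -0.65. Among them were Eif4b, a helicase cofactor, at -0.56 (adjusted p 1.39e-08), and the elongation factor Eef2 at -0.89 (adjusted p 7.25e-05) in untreated aggregates. Of 10 snoRNA host genes 4 and 6 fell, against 32.6% and 34.1% of all genes, at medians of -0.38 and -0.68. Of 78 genes of the mitochondrial ribosome 41 and 51 fell, at medians of -0.37 and -0.51, and the difference from the cytosolic set was not tested.

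Ribosome assembly genes also fell. Of 48 ribosome biogenesis genes 44 fell in untreated and 47 in XAV939 aggregates, at medians of -0.64 and -0.77. Examples are the assembly factors Gnl2 at -0.89 (adjusted p 1.83e-09), Nop14 at -0.70 (adjusted p 6.37e-09) and Pes1 at -0.86 (adjusted p 7.87e-09) in untreated aggregates. Of 18 listed genes of RNA polymerase I, which makes rRNA, 15 were measured, and 9 and 13 fell, with the initiation factor Rrn3 at -1.0 (adjusted p 1.15e-12) without XAV939.

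Regulators did not move as 1 group. On a list of 20 mTOR and TOP control genes 6 fell and 4 rose in untreated and 7 fell and 3 rose in XAV939 aggregates. Of all genes 32.6% and 34.1% were called lower and 34.7% and 36.8% higher in the 2 arms. These counts, and those of the Myc family below, can therefore not be read as particular to the lists. In untreated aggregates Larp1, which binds TOP mRNAs, fell at log2 -1.22 (adjusted p 1.2e-06), the mTOR inhibitor Deptor at -1.88 (adjusted p 1.31e-08) and the cap-binding repressor Eif4ebp1 at -1.44 (adjusted p 6.16e-06). In the Myc family, whose members drive transcription of ribosomal protein and assembly genes, 5 of 11 fell and 4 rose without XAV939, and 4 fell and 4 rose with it. Myc rose at log2 1.16 (adjusted p 0.000308) and 0.67 (adjusted p 0.0252) in the 2 arms, Mycl at 1.16 (adjusted p 1.87e-06) and 1.71 (adjusted p 1.2e-09), and Mycn fell at log2 -1.14 (adjusted p 4.71e-06) and -0.99 (adjusted p 3.28e-05). Of 20 p53 pathway genes 13 and 14 fell and 1 rose in each arm, Pmaip1 at -4.43 (adjusted p 3.51e-14) without XAV939. No list gene of ribosome biogenesis, RNA polymerase I, TOP translation, mTOR or the Myc family was called for XAV939 at day 6, and of the p53 list 1 of 20 was called lower. In that comparison 4.34% of all genes were called in either direction.

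Some features of the genes bear on how the counts can be read. The 83 genes lie on 19 chromosomes, 4 of them on X. In 30 genes the introns or exons hold 58 annotated snoRNAs, as in Rpl4, Rpl13a and Rpsa. Poly(A) libraries hold few snoRNAs. The median change in genes with and without them was -0.61 and -0.60 in untreated and -0.89 and -0.88 in XAV939 aggregates. Any part of snoRNA reads in the counts was not tested. In 25 genes another annotated gene overlaps, and without a stated strand setting reads of such pairs cannot be told apart. The median GC content of the transcripts was 50.7%, against 49.2% for all genes.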

How the data were processed

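The 40 poly(A) RNA libraries form 10 groups of 4. Per the labels' protocols, libraries were stranded TruSeq. The submitters' processing notes name bcl2fastq 2.20.0 and mm10. Neither aligner, counting program, annotation nor strand setting is given in the sources used here. The authors deposited whole-number counts per gene, without normalisation. Totals of 30197759 to 44086019 limit precision for weakly expressed genes.

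Members and lists were chosen with earlier results of these data known. Counts were filtered (filterByExpr, minimum count 10, minimum total count 15), scaled by TMM and fitted to all libraries by quasi-likelihood with 1 mean per group (edgeR 4.0.16, limma 3.58.1, R 4.3.3). Benjamini-Hochberg adjustment covered all 16878 genes. Paralogue ratios used log2 of counts plus 0.5 and exact permutation tests. Named genes were the paralogue pairs, stalk genes and a panel of known members, the 4 largest called changes in a comparison, and the 3 highest and 3 lowest members. For each list the genes with the smallest adjusted p and the Myc genes were named.

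Same-numbered libraries of the 2 arms deviated together within a day: in 20 of 20 pairs the correlation across genes was highest for the own number (0.145 to 0.523), so numbers pair libraries within a day. Whether numbers also link libraries across days was not tested. Mitochondrially encoded genes held 1.04 to 1.98% of the counts in libraries numbered 1. They held 2.41 to 5.46% in all others except untreated day 6 library 3 (0.915%). The main fit used no replicate numbers. Over the 60 pairs of libraries of 1 group no copy was found (smallest chi-square per gene 8.14). Alternatives were other size factors, DESeq2 1.42.0, other filters, only the libraries compared, replicate blocks, length and GC offsets and each library left out. Fits without libraries that stand apart or have a steep length trend were added after the data were seen, as were the steps between days without untreated day 6 library 3. Lengths and coordinates come from GENCODE M21, and promoter windows from RefSeq (GRCm38.p6). The edgeR steps were tested on simulated data. A few genes are not reported here by name.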

Additional observations from a re-analysis of the deposited data

Results flagged for a closer look

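Within groups of 4 libraries, 270 sets of values were checked for a library far from the other 3 (Dixon's gap over range), for the share of counts and for the 26 named genes in each of the 10 groups. Chance marks about 1 in 20 independent sets, and 30 were marked. These sets are not independent, as the genes vary together within groups (median pairwise r 0.874). Most marks come from untreated day 6 library 3, so their number cannot be set against chance. In untreated day 6 library 3 the ribosomal protein genes held 11.8% of the counts (others 5.17 to 5.40%), and in XAV939 day 6 library 3 they held 6.37% (others 5.44 to 5.55%).

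In untreated day 6 library 3, genes far above the other 3 libraries were Rpl10 at 1789 CPM (others 987 to 1043), Rpl11 at 1482 CPM (others 502 to 537), Rpl13a at 2275 CPM (others 762 to 790.3), Rpl22 at 970.2 CPM (others 439 to 477), Rpl3 at 2476 CPM (others 1176 to 1339), Rpl38 at 666 CPM (others 226 to 254), Rpl41 at 2069 CPM (others 440.4 to 577), Rpl5 at 1583 CPM (others 806 to 933), Rplp0 at 1866 CPM (others 762 to 846), Rplp1 at 823 CPM (others 189 to 248), Rplp2 at 742 CPM (others 194 to 219), Rps19 at 1639 CPM (others 589 to 608), Rps27 at 1137 CPM (others 414 to 473), Rps27a at 2579.5 CPM (others 1088 to 1255), Rps4x at 3574 CPM (others 1605 to 1909), Rps6 at 1249.7 CPM (others 559.5 to 616) and Rpsa at 3896 CPM (others 1565 to 1654). The same library has the length trend of 1.143, and its part in these levels was not tested.

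In untreated day 3 library 3 the genes far above the others were Rpl22 at 925 CPM (others 674 to 687), Rpl3 at 2364 CPM (others 1695 to 1751), Rpl4 at 5306 CPM (others 3960.4 to 4109), Rpl5 at 1529 CPM (others 1083 to 1138), Rps27 at 853 CPM (others 597 to 634) and Rps4x at 2525 CPM (others 1804 to 1901). In untreated day 3 library 1 it was Rplp2 at 333 CPM (others 250.3 to 263). In XAV939 day 6 library 3 they were Rpl3l at 0.108 CPM (others 0.0252 to 0.0275) and Rpsa at 1961 CPM (others 1666 to 1690.0). In XAV939 day 7 library 2 they were Rpl10l at 0.0820 CPM (others 0) and Rpl3l at 0.0820 CPM (others 0.0256 to 0.0280), where a few counts set the value.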

How the results depend on the processing

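Over 26 named genes and all alternatives, 4383 of 4439 values kept their side of the threshold, 28 lost a call and 26 gained one. Another 2 were called with a sign opposite to that of the main fit. Sign changes of values that were not called are not counted among the 2. Examples are the untreated estimates of Rps4x and Rps27a from day 3 to day 7, both 0.05 with length and GC offsets and negative in the main fit. Both values called with the opposite sign were Rpl22l1 with XAV939, from day 3 to day 7. They were 0.44 with length and GC offsets and 0.46 when untreated day 6 library 3 was also left out. The count of genes higher at day 7 in untreated aggregates was 1 instead of 0 with library totals only, with length and GC offsets, with these offsets and without untreated day 6 library 3, and without the 4 libraries of steep length trend. With XAV939 it was 1 with the offsets, with or without that library. Leaving out single libraries gave 43 to 71 genes lower in untreated aggregates, 43 without untreated day 3 library 3, and 75 to 79 with XAV939. In the test of the 5 daily effects together 1 gene, Rps27, was called with length and GC offsets and a replicate block within each day. Of all genes 18.7% were called in that fit. The replicate block within each day otherwise changed no call of a ribosomal protein gene. It gives no value for day 7 against day 3 within an arm, because its terms are separate for each day. With the replicate block over all days 72 and 80 genes were lower at day 7. DESeq2 gave 71 and 80. The share of all genes called lower is not given here for these alternatives or for single libraries left out. Without mitochondrially encoded genes the share of counts was higher in every group. It was 6.11% instead of 5.96 ± 0.124% in XAV939 day 4 libraries, and 8.08% instead of 7.79 ± 1.49% in XAV939 day 3 libraries. Where not stated otherwise the cause was not tested. Depth limits statements on Rpl3l, Rpl10l and Rpl39l, which had few or 0 counts from day 6 on.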

Other observations

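The following values were picked out after they were seen. Rpl10l and Rpl39l varied between libraries of 1 group at days 4 and 5. Untreated day 4 library 1 had 6 counts of Rpl10l and 0 of Rpl39l, where the other 3 libraries had 76 to 128 and 26 to 47. The same library had the mesoderm gene T at 549 CPM, where the others had 11.8 to 24.6 CPM, while its Pou5f1 was at 1137 CPM against 505 to 810 CPM. At untreated day 5, libraries 2 and 4 had 52 and 28 counts of Rpl10l and 36 and 25 of Rpl39l, and libraries 1 and 3 had 8 and 5 of Rpl10l and 4 and 3 of Rpl39l. Pou5f1 stood at 560 and 424 CPM in libraries 2 and 4 and at 262 and 351 CPM in libraries 1 and 3. No test was made of these differences.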
